A study of Mus musculus with 8 samples.

Results

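The osteoclasts of the petrous temporal bone (PTB) were examined as 1559 nuclei of single-nucleus RNA sequencing (snRNA-seq). They are the nuclei named Osteoclast in the authors' deposited annotation, matched by library and barcode to raw counts of unique molecular identifiers (UMIs). They made up 1559 of 31076 annotated PTB nuclei and of 79313 annotated nuclei in the series. The PTB annotation covers the connective tissue, cartilage and bone classes on which the paper focused. Immune cells and neurons, which the paper also describes in the bone, have no label in it. The series compared WT with Tbx1+/- littermates, which carry 1 deleted copy of the transcription factor gene Tbx1, at postnatal day 5.5 on a C57BL/6J background, in the PTB and in the paraflocculus/flocculus (PF/F) of the cerebellum. The allele is constitutive and not restricted to a cell type, and mice were pooled, 5 per library and of both sexes. Only the 4 PTB libraries, WT and Tbx1+/- with 2 replicates each, enter the results. Replicates 1 and 2 were taken as the paper's 2 batches, each made from its own set of mice. Since the frozen bone was pulverized before nuclei were released, a nucleus is not a whole osteoclast, which is a cell with many nuclei, and fewer cells, fewer nuclei per cell and different recovery cannot be told apart.

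Osteoclasts are the cells that resorb bone. They form when monocyte-lineage precursors meet M-CSF and RANKL, ligands of the receptors Csf1r and RANK (gene Tnfrsf11a), made by cells of bone and cartilage, and fuse under the control of the transcription factor NFATc1 with co-stimulation through ITAM adaptors. The mature cell seals off a patch of bone with integrin-based adhesions, acidifies it through a vacuolar proton pump and a chloride channel, and digests the matrix with cathepsin K. In the growing skull they remodel new bone and open the marrow spaces.

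The annotation held 427 osteoclast nuclei in WT replicate 1, 455 in Tbx1+/- replicate 1, 320 in WT replicate 2 and 357 in Tbx1+/- replicate 2, with 2393064 to 2719871 UMIs summed per library. Osteoclast nuclei had a median of 4963 and 5323 UMIs in batch 1 and of 7105 and 6617 in batch 2, the highest of the 7 annotated classes in each library. The other classes were connective tissue (CT), chondrocyte progenitors (CPs), matured chondrocytes, a class labelled hypertrophic, osteoblasts and matured osteoblasts. The hypertrophic label is shortened here to its first word and is not used to mean hypertrophic chondrocytes alone. No osteoclast barcode was shared between any pair of libraries (0 in each). Levels are given as CPM, the UMIs of a gene scaled to the summed UMIs of a class in a library. They are not divided by gene length, so levels of one gene are compared between classes and libraries, and not between genes.

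The marker genes were highest in the nuclei with the label, but unequally. The paper annotated types by their markers and names Acp5 and Ctsk for osteoclasts. These levels thus describe the label and do not test it. Ctsk (cathepsin K, chr3:95499256-95509362, plus strand) stood at 5416, 3685, 4434 and 4890 CPM in WT replicate 1, Tbx1+/- replicate 1, WT replicate 2 and Tbx1+/- replicate 2. Its lowest fold over the highest other class was 7.22 and its highest 11.7. Acp5 (tartrate-resistant acid phosphatase, chr9:22126727-22135711, minus strand) stood at 1762, 1416, 1039 and 1206 CPM, and was 3.39- to 5.68-fold over the next class. Mmp9 (a gelatinase, chr2:164940780-164955850, plus strand) stood at 1455, 1246, 784 and 977 CPM and was 1.98- to 2.92-fold over the hypertrophic class. In all 3 genes the osteoclast level was above that of every other class in each library, and batch 1 was higher than batch 2 for Acp5 and Mmp9.

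UMIs of the most abundant markers were also present in nuclei of the other classes. After each nucleus was thinned to 2000 UMIs, which left out 5 to 14 osteoclast nuclei per library, a Ctsk UMI was found in 93.9% to 96.0% of osteoclast nuclei and in 39.5% to 55.3% of CP nuclei. Without thinning these shares were 96.9% to 99.2% and 64.9% to 80.1%, at median depths of 3742 to 4538 UMIs in CPs. Receptor and pump genes separated the nuclei far more sharply. Tnfrsf11a was found in 78.4% to 81.6% of thinned osteoclast nuclei against 1.29% to 2.05% of CP nuclei, and Atp6v0d2, an osteoclast subunit of the proton pump, in 86.0% to 92.6% against 2.40% to 6.29%. The ratio of Ctsk to Atp6v0d2 UMIs was 1.46 to 2.46 in osteoclasts, and 10.5 to 26.6 over the other 6 classes. The ratio of Ctsk to Acp5 was 2.60 to 4.27 in osteoclasts and 1.49 to 2.26 in the others, so the marker UMIs found outside osteoclasts did not have the proportions of the annotated osteoclast nuclei. Where these UMIs came from was not tested.

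To show which genes marked osteoclasts against all other classes, genes with a mean of at least 10 CPM in osteoclasts and at least 4-fold the level of every other class in each of the 4 libraries were listed (pseudocount 1 CPM). This rule took 294 of 10100 genes (2.91%), while the median gene stood at 0.737-fold of the highest other class. Because the nuclei were clustered on their expression, these counts describe the class and are not tested. None of the other annotated classes was a leukocyte class, so the rule does not compare osteoclasts with other leukocytes. The members nearest the limit were Enox2 and Kazn at 4.0 inside, and Atp6ap2 just under 4.0 and Spata17 at 3.98 outside.

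**Figure D1:**
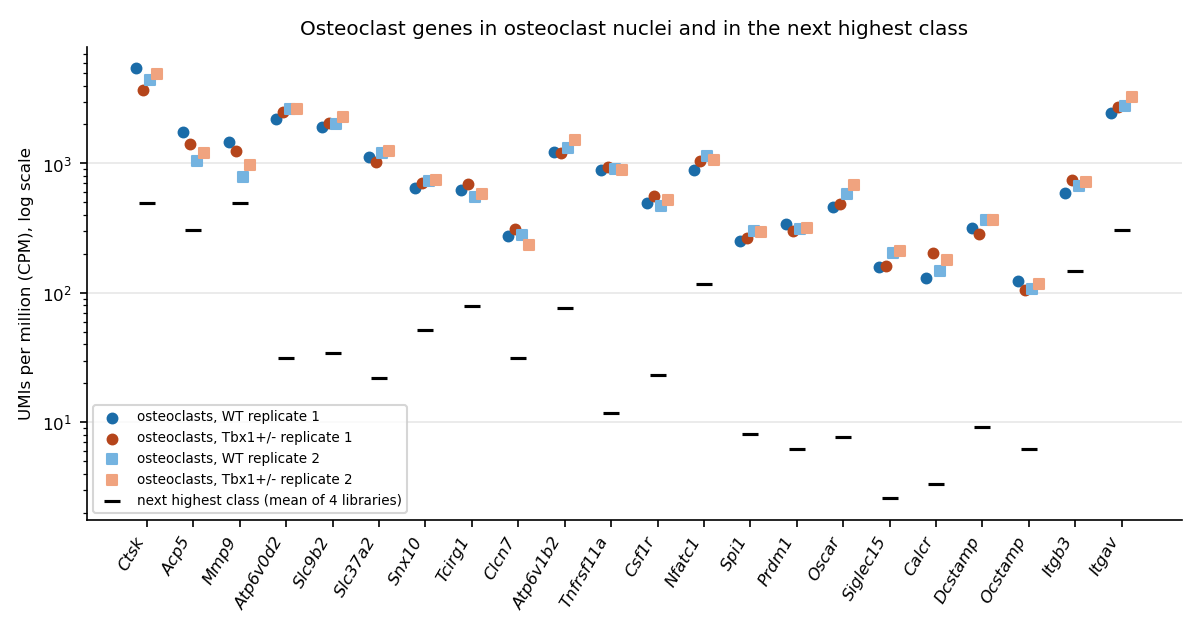
Level of 22 osteoclast genes in CPM on a log axis, with 1 point per PTB library for osteoclast nuclei and a bar for the mean of the next highest class. The 4 libraries lie close together for Tnfrsf11a (890 to 937 CPM), and the distance to the next class is small for Acp5, Mmp9 and Itgb3.

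Of 20 genes of the resorption machinery, all of which reached 10 CPM, 10 were at least 4-fold above every class, with a median fold over the next class of 5.93. Atp6v0d2 was the most particular, at 2201, 2518, 2647 and 2636 CPM, or 51.5- to 94.1-fold over the next class. Slc9b2, a sodium/proton exchanger of the mitochondrial and endosomal membranes, followed with 1918 to 2302 CPM (44.9- to 61.9-fold), and Slc37a2, a sugar-phosphate transporter of osteoclast lysosomes, with 1019 to 1251 CPM (32.9- to 58.7-fold). Tcirg1 (the a3 pump subunit), Clcn7 (the chloride exchanger), Snx10, Plekhm1, Slc4a2 (the bicarbonate/chloride exchanger) and Rab38 were also on the list, at lowest folds of 5.33 to 10.7. Genes that these cells share with others did not pass. Car2, the carbonic anhydrase that supplies the protons, was at 55.2 to 69.7 CPM and 1.27- to 1.80-fold over CPs, the lysosomal proteases Ctsb and Ctsd were at 1.37- to 1.80-fold and 0.73- to 1.40-fold, and Mmp14 was at 0.84- to 1.08-fold of CT.

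The summed proton pump list stood at 8483, 8327, 8505 and 8793 CPM, against at most 1354 CPM in any other class, but its subunits differed. Of 21 subunit genes, 18 reached 10 CPM, with a median fold over the next class of 4.30, and 7 were at least 4-fold above every class. These were Atp6v0d2, Atp6v1b2 (1206 to 1510 CPM, 13.1- to 20.1-fold), Atp6v1a (7.36- to 11-fold), Tcirg1, Atp6v0b, Atp6v1c1 and Atp6v1h. The alternative a subunits lay on the other side of the next class, with Atp6v0a1 at 30.9 to 34.5 CPM, 0.29- to 0.31-fold of matured osteoblasts, and Atp6v0a2 at 0.68- to 0.86-fold. Atp6v1b1, Atp6v1c2 and Atp6v0a4, subunits known from kidney and other epithelia, were below 6 CPM in each library, and the osteoclast nuclei of WT replicate 1 held 0 UMIs of Atp6v1b1, which allows up to 3 UMIs.

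In the receptor and transcription factor list 11 of 22 genes passed. Tnfrsf11a stood at 890, 937, 899 and 893 CPM (48.3- to 74.7-fold), and Csf1r at 496, 559, 473 and 525 CPM (13.6- to 23.2-fold). Nfatc1, the master factor of the lineage, was at 893 to 1151 CPM but had 7.92- to 9.01-fold over matured chondrocytes, which also held it. Spi1 (PU.1), Prdm1 (a repressor of the genes that hold back osteoclast formation), Ppargc1b, Jdp2, Mitf, Fosl2, Fos and Traf6 passed as well. The kinase and NF-κB genes did not, with Map3k14 at 1.09- to 1.63-fold, Nfkb1 at 1.30- to 1.5-fold and Rela at 0.54- to 1.11-fold.

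Of 11 brakes on osteoclast formation, 8 reached 10 CPM and only Nfkbia, a feedback inhibitor of NF-κB, passed (5.82- to 7.73-fold). Irf8, a repressor that precursors must shut off, held 1.10 to 3.10 CPM, and the repressor gene Bcl6 was at 1.01- to 1.38-fold of the next class. In the ITAM and calcium list 8 of 15 genes at 10 CPM passed, of 16 members. Oscar, the collagen-binding co-stimulatory receptor, stood at 463, 485, 576 and 686 CPM (37.4- to 85.8-fold), Siglec15 at 159 to 210 CPM (30.9- to 66.9-fold), the calcitonin receptor gene Calcr at 130, 205, 146 and 178 CPM (28- to 59.7-fold) and Syk at 326 to 365 CPM. The receptor gene Trem2 was at 2.57 to 5.53 CPM, and the adaptor genes Tyrobp and Fcer1g were at 2.93- to 3.97-fold and 1.45- to 2.62-fold.

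Fusion and adhesion genes were divided in the same manner. Of 14 fusion genes, 12 reached 10 CPM and 4 passed, Dcstamp (285 to 366 CPM, 22.0- to 62.2-fold), Ocstamp (105 to 124 CPM, 10.9- to 22.5-fold), Atp6v0d2 and Sirpa, whereas Cd9, Cd81 and Cd47, found on many cells, were at 0.23- to 0.74-fold of the next class. Sirpa, at 271 to 318 CPM in osteoclasts, was higher in unannotated barcodes with macrophage markers, described below (410 to 512 CPM). All 23 adhesion and actin genes reached 10 CPM and 4 passed, Itgav, Fermt3, Ptk2b and Src. Itgb3, the integrin chain that pairs with Itgav, stood at 590 to 741 CPM and missed the limit in 1 or more libraries (3.39- to 5.38-fold), the next class being matured osteoblasts. Of 13 factors through which osteoclasts are known to act on bone-forming cells, 9 reached 10 CPM and 2 passed, Pdgfb (203 to 243 CPM, 16.4- to 30.1-fold) and Lif (41.8 to 60.1 CPM, 10.8- to 20.9-fold). Slit3, Igf1, Bmp6 and Tgfb1 were higher in other classes, at most 0.33-fold in osteoclasts.

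The ligands of these receptors were highest in the class labelled hypertrophic. Its summed chondrocyte list stood at 3275 to 3856 CPM, against 13716 to 28003 CPM in matured chondrocytes, 11354 to 11968 CPM in osteoblasts and 5706 to 6702 CPM in CPs, and its summed osteoblast list at 22521 to 30491 CPM. The chondrocyte list was thus also higher in osteoblasts than in CPs and does not by itself separate chondrocytes from osteoblasts. Csf1 (M-CSF) was there at 197 to 221 CPM against 19.0 to 25.1 CPM in osteoclasts, and Tnfsf11 (RANKL) likewise, at 55.9 to 66.7 CPM against 3.09 to 7.46 CPM in matured osteoblasts and 4.18 to 9.21 CPM in osteoclasts. The RANKL decoy Tnfrsf11b was highest in matured osteoblasts, at 24.7 to 51.6 CPM. No member of the 5-gene ligand list passed (0 of 2 at 10 CPM).

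**Figure D2:**
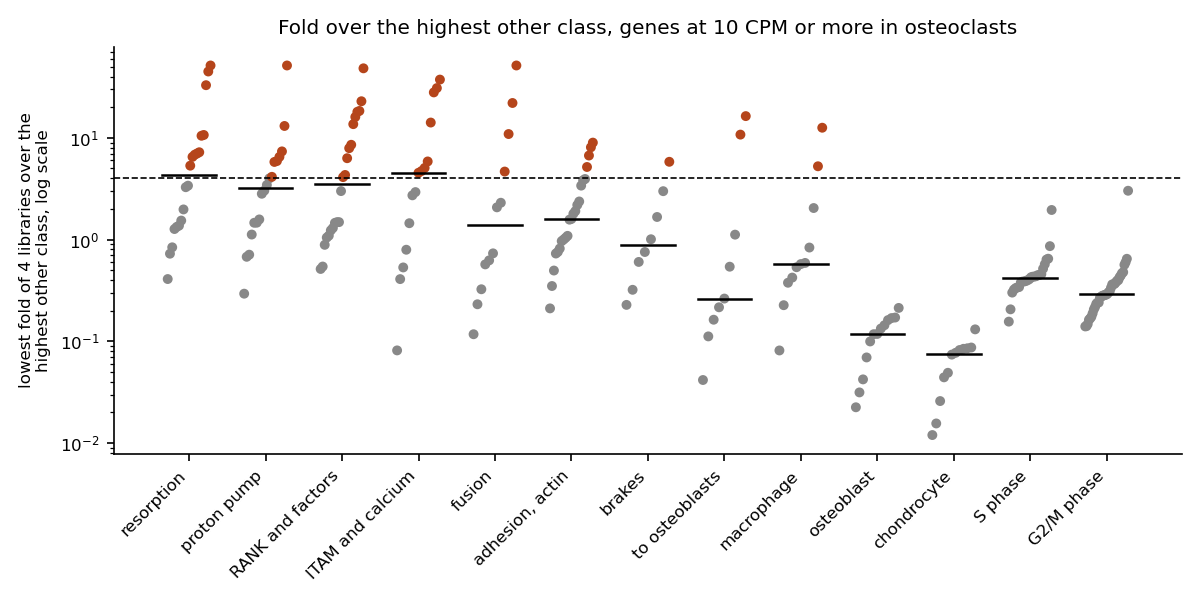
Fold of each gene over the highest other class, taken in the library where it was lowest, for genes at 10 CPM or more, on a log axis. Points above the dashed line at 4-fold are the listed genes, and black bars are medians, so that the osteoblast, chondrocyte and cell cycle lists lie wholly below the line.

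Outside these lists the most particular genes were Nyap2, Hs3st4, Ptpn22, Dgki, Tm4sf19, St18, Gm44507, 1700011L22Rik, Abcb4 and Cd84. Nyap2, an adaptor of phosphoinositide 3-kinase described in neurons, stood at 1397, 1611, 1562 and 1643 CPM and 76.6- to 147-fold over the next class, above every list member. Dgki, a diacylglycerol kinase, was at 3647 to 4450 CPM (44.5- to 57.8-fold) and St18, a zinc finger factor, at 1870 to 2115 CPM (39.5- to 80.7-fold). Ptpn22, a phosphatase of leukocytes, and Cd84, a leukocyte surface receptor, were at 276 to 333 CPM and 356 to 407 CPM. These folds are against annotated classes without other leukocytes, and barcodes with macrophage markers are described below.

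Markers of other cells were counted as well. Of 20 macrophage genes 11 reached 10 CPM and 2 passed, the pan-leukocyte Ptprc and Itgam. The macrophage-defining Adgre1, Mrc1 and F13a1 were at 7.0 to 11.3, 26.5 to 43.9 and 23.6 to 43.0 CPM, with Mrc1 and F13a1 below the next class. No gene of the neutrophil, mast cell, lymphoid, megakaryocyte, erythroid, endothelial, muscle, neuron, glia, epithelial, osteoblast, chondrocyte or connective tissue lists passed (0 each). The muscle list was nevertheless highest in osteoclasts in every library, at 1050, 914, 875 and 671 CPM, against at most 396, 803, 107 and 63.1 CPM in any other class. Most of this was Ttn, the giant sarcomere protein titin, at 827, 723, 829.7 and 652 CPM, which missed the limit only in Tbx1+/- replicate 1 (2.23-fold). The summed macrophage list stood at 725, 568, 557 and 585 CPM in osteoclasts.

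Barcodes with macrophage markers were present among those that the annotation left out. Barcodes with at least 1000 detected genes, no annotation, at least 5 UMIs of the macrophage list without Ptprc and Itgam, and more UMIs of it than of any other cell type's list numbered 215, 65, 136 and 116 per library, a choice made after the data were seen. They shared part of the osteoclast repertoire. Csf1r was at 641, 406, 571 and 580 CPM in them, next to 496, 559, 473 and 525 CPM in osteoclasts, and Mitf was at 435 to 549 CPM against 569 to 636 CPM. Cd84 was at 239 to 322 CPM against 356 to 407 CPM in osteoclasts. Sirpa (410 to 512 CPM), Ptprc (257 to 321 CPM) and Itgam (78.2 to 96.3 CPM) were above osteoclasts in each library. Osteoclasts held them at 271 to 318, 232 to 274 and 63.1 to 80.3 CPM. Tnfrsf11a was intermediate, at 143 to 286 CPM, and Ptpn22 was low, at 12.2 to 36.0 CPM. Prdm1 was at 7.46 to 48.0 CPM, while Oscar (3.73 to 6.11 CPM), Calcr (0 to 3.73 CPM), Siglec15 (0 to 1.71 CPM) and Nyap2 (14.3 to 33.5 CPM) were far below osteoclasts, and Irf8 (53.2 to 67.6 CPM) and Trem2 (22.4 to 120 CPM) above them.

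Promoters of a few of these genes are shown because osteoclast genes are known targets of NFAT, AP-1, PU.1 and MITF, and because the genes are high together in this class. Each line gives the 250 bases before a RefSeq start in GRCm38.p6, 5′ to 3′ on the gene's strand, with letters that match a searched motif in capitals. The motifs were GGAAA or TTTCC for NFAT, TGAGTCA or TGACTCA for AP-1, GAGGAAG or CTTCCTC for PU.1, and CACGTG for the MITF E-box, along with its variant CATGTG, which reads CACATG on the opposite strand. All were searched on both strands, and the NFAT and PU.1 letters share the core GGAA.
Ctsk, chr3:95498960-95499209, plus strand: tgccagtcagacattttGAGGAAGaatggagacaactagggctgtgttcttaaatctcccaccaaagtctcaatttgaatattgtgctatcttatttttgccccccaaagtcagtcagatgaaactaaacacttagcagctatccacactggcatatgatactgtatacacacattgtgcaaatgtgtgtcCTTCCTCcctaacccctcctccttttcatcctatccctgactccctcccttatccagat
Oscar, chr7:3616158-3616407, minus strand: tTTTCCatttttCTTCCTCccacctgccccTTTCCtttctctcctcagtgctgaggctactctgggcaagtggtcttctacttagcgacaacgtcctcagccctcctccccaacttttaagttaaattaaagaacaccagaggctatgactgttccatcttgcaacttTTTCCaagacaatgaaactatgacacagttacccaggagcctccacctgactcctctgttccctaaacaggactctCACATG
Slc9b2, chr3:135307450-135307699, plus strand: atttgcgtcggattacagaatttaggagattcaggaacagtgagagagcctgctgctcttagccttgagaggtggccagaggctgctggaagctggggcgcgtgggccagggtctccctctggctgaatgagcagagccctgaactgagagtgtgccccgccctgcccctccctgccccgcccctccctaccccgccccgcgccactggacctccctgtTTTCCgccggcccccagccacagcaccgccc
Nyap2, chr1:81076700-81076949, plus strand: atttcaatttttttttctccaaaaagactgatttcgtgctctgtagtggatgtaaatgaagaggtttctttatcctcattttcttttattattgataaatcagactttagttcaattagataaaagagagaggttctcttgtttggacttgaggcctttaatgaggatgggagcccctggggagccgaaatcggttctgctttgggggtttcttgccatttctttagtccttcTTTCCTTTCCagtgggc
The Ctsk window held 2 PU.1 matches and the Oscar window 3 NFAT, 1 PU.1 and 1 E-box match, whereas the Slc9b2 and Nyap2 windows held 1 and 2 NFAT matches alone. RefSeq windows were found for 219 of the 294 listed genes (295 windows). The NFAT letters were in 55.3% of these and in 55.6% of all 32851 windows, the AP-1 letters in 8.14% and 4.46%, the PU.1 letters in 16.9% and 10.6%, and the E-box letters in 14.9% and 17.6%. These shares are descriptions, and a match is not a bound site.

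The osteoclast nuclei were not uniform. In the authors' embedding they formed a larger and a smaller group, which lie above and below 0 on its second axis. The limit was set after the positions were seen, and 7 to 21 nuclei per library lay within 0.2 of it. The smaller group held 76 of 427 nuclei in WT replicate 1 (17.8%, 95% Wilson interval 14.5% to 21.7%), 73 of 455 in Tbx1+/- replicate 1 (16%, 13% to 19.7%), 67 of 320 in WT replicate 2 (20.9%, 16.8% to 25.7%) and 54 of 357 in Tbx1+/- replicate 2 (15.1%, 11.8% to 19.2%), with intervals that cover counting error only. Both WT shares were above both Tbx1+/- shares, with means of 19.4% and 15.6%, but an exact two-sided permutation test of 2 against 2 libraries gave p = 0.333, the smallest it can give.

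The smaller group had higher levels of cell cycle genes and lower levels of many genes of the mature cell. The embedding was built from expression, so the following values describe it. The smaller group was also shallower, with median depths of 3644, 3772, 4242 and 4284 UMIs per nucleus against 5452, 5618, 7707 and 6999, and the part of depth in these differences was not tested. The summed S phase list stood at 2315 to 2512 CPM in the smaller group against 616 to 705 CPM in the larger, and Top2a, the topoisomerase of dividing cells, at 358, 330, 393 and 199 CPM against 34.0, 26.8, 30.1 and 32.1 CPM. Abcg3, a transporter gene (chr5:104935057-104982718, minus strand), was at 163, 132, 130 and 157 CPM in the smaller group and at 0 to 3.14 CPM in the larger, the widest difference in its direction among genes at 50 CPM or more in each library of a group. The adaptor gene Blnk was at 122 to 225 CPM against 11.5 to 17.1 CPM. In the other direction, Itgb3 was at 45.6, 63.0, 39.6 and 59.2 CPM in the smaller group and at 670, 836, 768 and 804 CPM in the larger, with 18.5 to 30.4 CPM in CPs, Oscar at 29.3 to 42.4 CPM against 526 to 764 CPM, Nyap2 at 42.4 to 101 CPM against 1596 to 1828 CPM, and Slc9b2 at 228 to 449 CPM against 2167 to 2534 CPM. Atp6v0d2 was at 585 to 1060 CPM against 2420 to 2899 CPM, with 11.8 to 28.9 CPM in CPs, and Dcstamp at 144 to 187 CPM against 305 to 391 CPM, with 3.12 to 6.41 CPM in CPs.

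Receptor and factor genes differed less. Tnfrsf11a stood at 1010, 752, 888 and 819 CPM in the smaller group and at 872, 963, 901 and 902 CPM in the larger, Spi1 at 219 to 331 CPM and at 252 to 302 CPM, and St18 at 1481 to 2352 CPM and at 1894 to 2088 CPM. Nfatc1 was lower in the smaller group of each library, at 737 to 1083 CPM against 916 to 1162 CPM, and so was Csf1r, at 365, 330, 328 and 317 CPM against 516, 591, 496 and 549 CPM. Mmp9 was not lower in the smaller group of every library, at 1730, 938, 738 and 1212 CPM against 1415, 1289, 791 and 949 CPM, although Ctsk was, at 860 to 1851 CPM against 4080 to 5940 CPM. The macrophage list summed to 758 to 1092 CPM against 523 to 672 CPM, and the osteoblast list to 8232 to 12086 CPM against 5476 to 9512 CPM, and their part in the grouping was not tested.

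**Figure D3:**
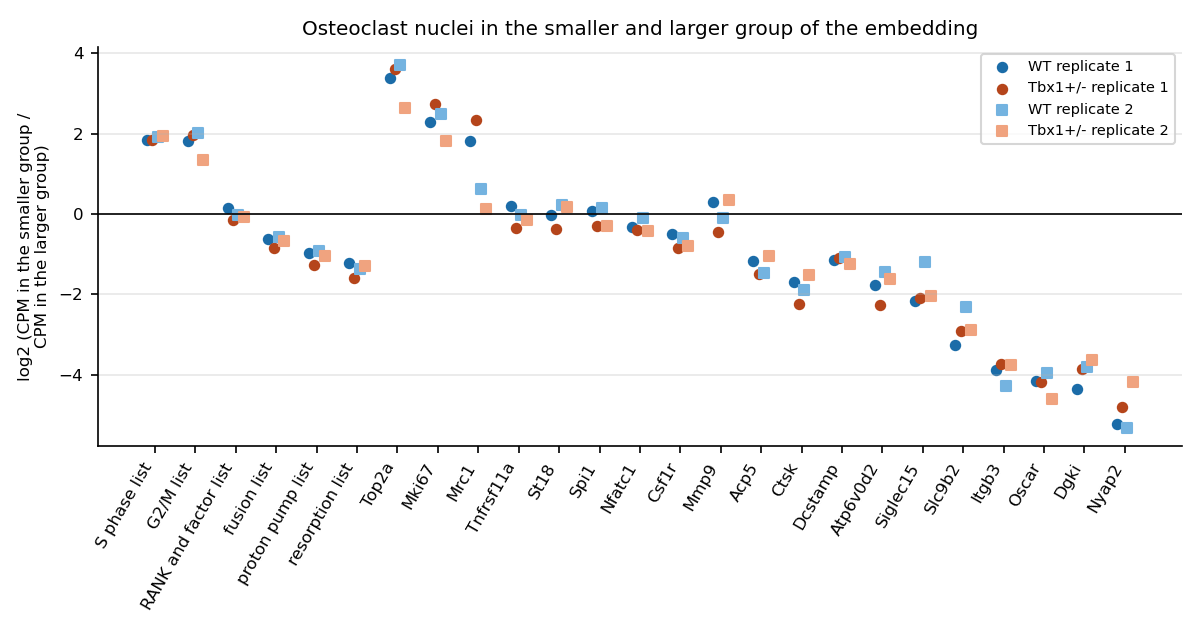
Log2 ratio of CPM in the smaller to CPM in the larger group of osteoclast nuclei, 1 point per PTB library, for 6 gene lists and 19 genes. Cell cycle genes lie above 0, Tnfrsf11a, St18 and Spi1 near 0, and Itgb3, Oscar, Dgki and Nyap2 lowest of the features shown.

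The marker level itself also spanned a wide range. Summed Ctsk, Acp5 and Mmp9 made up a median of 67.8, 52.2, 55.6 and 69.1 per 10000 UMIs of an osteoclast nucleus, against 4.06 to 8.66 in CPs, and 3 and 1 osteoclast nuclei of WT and Tbx1+/- replicate 2 held none. Nuclei were ranked by this level within each library and divided into equal tertiles of 106 to 152 nuclei, with 32 to 71 nuclei within 10% of a limit. From the lowest to the highest tertile the resorption list without the 3 markers went from 5934 to 6715 CPM up to 10469 to 11864 CPM, and the proton pump list from 5315 to 6228 CPM up to 10483 to 11261 CPM. The receptor and factor list differed less, at 5526 to 6171 CPM and 6192 to 7629 CPM. The G2/M list was lower in the highest tertile, at 840 to 1171 CPM against 1443 to 2634 CPM. The osteoblast list was lower as well, at 4421 to 8880 CPM against 7490 to 11992 CPM.

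Nuclei with the marker level of osteoclasts were found outside the annotated class. At or above the 10th percentile of osteoclast nuclei of the same library lay 1690, 1683, 477 and 641 unannotated barcodes with at least 1000 detected genes, 11.4% to 25.1% of all such barcodes, with median depths of 1916 to 2331 UMIs. Of annotated nuclei, 4.26% to 7.55% of CPs, 11.6% to 14.8% of CT and 15.0% to 23.6% of matured chondrocytes also reached that level. Of these unannotated barcodes, 43.2% to 52.0% held a UMI of Nfatc1, Tnfrsf11a, Calcr, Dcstamp, Ocstamp, Atp6v0d2 or Itgb3, as did 28.5% to 43.0% of CP, 41.7% to 49.0% of osteoblast and 46.2% to 55.4% of hypertrophic-labelled nuclei at the same level, the last at median depths of 3340 to 4022 UMIs. These 7 genes summed to 747 to 1519 CPM in the unannotated barcodes, next to 5371 to 6294 CPM in annotated osteoclasts above the same limit, 138 to 294 CPM in such CP nuclei and 188 to 291 CPM in such hypertrophic-labelled nuclei. In matured osteoblasts at that level (7 to 29 nuclei) these genes summed to 270 to 742 CPM. In matured chondrocytes (10 to 60 nuclei) they summed to 97.9 to 601 CPM. How many of the unannotated barcodes are osteoclasts was not tested.

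The share of osteoclasts was then compared between genotypes, since the study asked whether cell types of the PTB change in Tbx1+/- mice. Osteoclasts made up 4.28% of annotated nuclei in WT replicate 1, 5.23% in Tbx1+/- replicate 1, 5.35% in WT replicate 2 and 5.57% in Tbx1+/- replicate 2. The Tbx1+/- library was higher in each batch, but WT replicate 2 lay above Tbx1+/- replicate 1. By edgeR's quasi-likelihood test the log2 change was 0.17 (SE 0.15, adjusted p = 0.413 over 7 classes, threshold 0.1), and with the batch as a block it was 0.17 (SE 0.42, adjusted p = 0.700). Per nucleus of the osteoblast and matured osteoblast classes there were 0.249, 0.211, 0.238 and 0.237 osteoclast nuclei. Both classes together held 1712 of 9977 annotated nuclei in WT replicate 1 and 2152 of 8704 in Tbx1+/- replicate 1. In replicate 2 they held 1344 of 5981 in WT and 1505 of 6414 in Tbx1+/-. The paper reports a rise of osteoblasts in Tbx1+/- mice, and the part of osteoblast counts in the ratio was not tested. The ratio was lower in Tbx1+/- in batch 1 and nearly equal in batch 2. With at least 2000 detected genes per nucleus it was 0.273 in WT and 0.275 in Tbx1+/- replicate 2. The log2 difference of this ratio was -0.12, and the exact two-sided permutation test gave p = 0.333, the smallest that 2 against 2 allows. With 2 libraries a group, changes of this size were within the spread between replicates.

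Tbx1 itself was scarce in osteoclasts. The nuclei held 28 UMIs (11.7 CPM) in WT replicate 1, 19 (6.99 CPM) in Tbx1+/- replicate 1, 40 (15.5 CPM) in WT replicate 2 and 29 (10.7 CPM) in Tbx1+/- replicate 2. The Tbx1+/- library was lower in each batch, as it was for 2935 of 13191 genes tested. The log2 change of Tbx1 was -0.62 (SE 0.35, edgeR unadjusted p = 0.119). In osteoblasts Tbx1 was at 30.4 and 30.2 CPM in WT and at 19.3 and 29.2 CPM in Tbx1+/-. Whether the UMIs count the deleted part of the gene was not tested.

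Across genes, no difference between genotypes passed the test in osteoclasts. Of 13191 genes tested with edgeR on sums per library, 0 (0%) were called at an adjusted p under 0.05 and a change above 1.5-fold, and DESeq2 called 0 as well. By edgeR 151 genes were higher (1.14%) and 137 lower (1.04%) in Tbx1+/- at an unadjusted p under 0.05. The number by DESeq2 was 65. With the batch as a block 3 genes were called (0.0227%), while 301 (2.28%) were higher and 295 (2.24%) lower at an unadjusted p under 0.05. Leaving out WT replicate 1 gave 206 calls (1.48%), 162 higher and 44 lower, and leaving out WT replicate 2 gave 43 (0.309%), 9 higher and 34 lower. In these fits WT is a single library that is assumed to vary like the 2 Tbx1+/- libraries. Without WT replicate 1 the calls held 65 ribosomal protein genes and 8 mitochondrially encoded genes, all higher, and without WT replicate 2 they held 7 and 8, all lower. Of 15 genes called in both fits, 12 had opposite signs. The 83 ribosomal protein genes summed to 26650 CPM in WT replicate 1 and 10530 CPM in WT replicate 2, with the Tbx1+/- libraries between them at 21440 and 15130 CPM. The 13 mitochondrially encoded genes stood at 13380 and 4504 CPM in WT and at 8779 and 5434 CPM in Tbx1+/-, so that the WT libraries were the highest and the lowest in both sets. The part of this spread in the other gene values was not tested. A count of 0 does not show that genes did not differ.

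The 3 genes called with the batch block were not genes of the osteoclast program. Lifr, the receptor of leukemia inhibitory factor (chr15:7090614-7197489, plus strand), stood at 130 and 125 CPM in WT and at 268 and 231 CPM in Tbx1+/-, a log2 change of 0.96 (SE 0.12, adjusted p = 0.00669 by edgeR with the block, 1 without it). Col22a1, a collagen of tissue junctions (chr15:71795795-72034227, minus strand), was at 66.4 and 63.9 CPM in WT and 136 and 108 CPM in Tbx1+/-, a log2 change of 0.89 (SE 0.14, adjusted p = 0.0325 with the block, 1 without it). Both genes were higher in the Tbx1+/- library of each batch, as were 3439 of 13191 genes tested. Bpifa1, a secreted protein of airway and middle ear epithelium (chr2:154142880-154149219, plus strand), was at 155 and 31.4 CPM in WT and 44.5 and 3.32 CPM in Tbx1+/-, with log2 changes of -1.78 in batch 1 and -2.91 in batch 2 and of -2.13 in the blocked edgeR fit (adjusted p = 0.000936, 1 without the block), and the groups overlapped. In osteoblasts Bpifa1 was at 141 and 123 CPM in WT and 54.8 and 4.69 CPM in Tbx1+/-.

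The genes with the smallest p in the fit without batch, none of them called, included Lifr, Col22a1, Pdgfd and Rerg among those higher in Tbx1+/- and Mecom, Hmga2, Pdzrn4, Eda and Dach1 among those lower. Of the 10 genes with the smallest p, 5 in each direction, 9 had a lower level in osteoclasts than in another class in every library, at 0.0528- to 0.288-fold, and Hmga2 was the exception. Pdgfd, a growth factor gene, stood at 121 and 131 CPM in WT and at 213 and 197 CPM in Tbx1+/- osteoclast nuclei (log2 change 0.70, edgeR adjusted p = 1). Without the tenth of osteoclast nuclei that held most osteoblast and chondrocyte UMIs, the log2 change of Lifr was 1.03. That fit called 0 genes. The remaining nuclei also held osteoblast UMIs, and Lifr was highest in the class labelled hypertrophic. This cut cannot tell where the Lifr UMIs came from.

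Lists of the osteoclast program had median changes near 0. None of the 20 resorption genes (0 in either direction), of the 22 receptor and factor genes, of 19 tested pump genes of 21, of 13 tested fusion genes of 14 or of the 23 adhesion genes passed an unadjusted p under 0.05. With the batch block 2 adhesion genes were higher and 1 pump gene and 1 factor gene were lower at that p, and none was called. Their median log2 changes were -0.03, -0.04, 0.04, 0.04 and 0.10, beside 0.01 over all genes. The log2 change of Ctsk was -0.20 (SE 0.17), with -0.56 in batch 1 and 0.14 in batch 2, and Acp5 and Mmp9 also differed in sign between the batches. In the ITAM list 1 of 16 genes had an unadjusted p under 0.05, Calcr, with a log2 change of 0.47 (SE 0.13, edgeR adjusted p = 1) and higher in both batches. Among the 294 genes that marked the class, 2 were higher and 9 lower at an unadjusted p under 0.05, beside 1.14% higher and 1.04% lower over all genes. With the block 8 were higher and 12 lower, beside 301 and 295 of all genes. The median was 0.03 in both fits.

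The summed list of G2/M phase genes stood at 1501, 1513, 1494 and 1104 CPM, so that only Tbx1+/- replicate 2 was low. Of 54 members 50 were tested, and 4 of them (Top2a, Tacc3, Ccnb2 and Cenpe) were lower and 0 higher in Tbx1+/- at an unadjusted p under 0.05, with none called. The median log2 change was -0.30, 22 were lower in both batches and 3 higher in both. Over all 13191 genes 137 were lower at that p and 2935 lower in both batches. In batch 2, 44 of the 50 were lower (6835 of 13191 over all genes) with a median of -0.56, whereas in batch 1 there were 25 lower and 25 higher. With the batch block 7 of the 50 were lower and 0 higher at an unadjusted p under 0.05, beside 295 lower (2.24%) over all genes. In the smaller group of nuclei, whose share was lower in both Tbx1+/- libraries, the G2/M list stood at 3999 and 4362 CPM in WT and Tbx1+/- replicate 1 and at 4249 and 2421 CPM in replicate 2, and the part of that share was not tested. Top2a stood at 75.6 and 64.0 CPM in WT and Tbx1+/- replicate 1 and at 79.8 and 49.7 CPM in replicate 2. Among markers of other cells, 1 of 15 tested macrophage genes (Lyve1) and 1 of 6 tested muscle genes (Ttn) were lower at that p. None was higher, and the medians were -0.31 and -0.34. With the block 1 macrophage gene and 2 muscle genes were lower. The macrophage median was -0.57 in batch 1 and 0.09 in batch 2, and the muscle median -0.22 and -1.04. Of the neuron list 1 of 5 was lower (2 with the block), and of the glia list 2 of 6 were higher (3 with the block). Over all genes 1.04% were lower and 1.14% higher at that p, and 2.24% and 2.28% with the block. The part of macrophages, muscle, neurons and glia in the gene values was not tested. All 43 S phase genes were tested and 0 had an unadjusted p under 0.05 in either direction, with a median of 0.03.

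**Figure D4:**
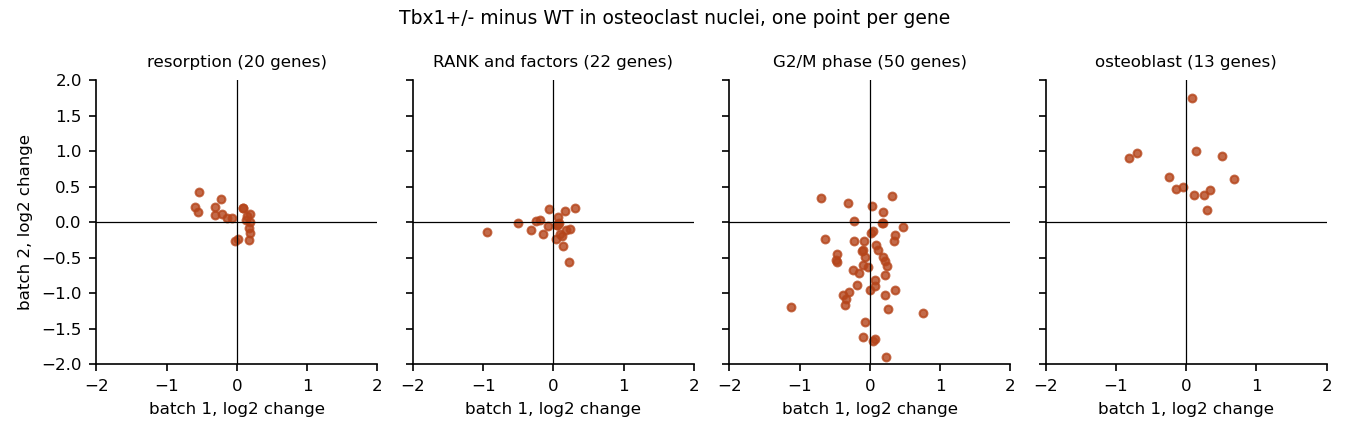
Log2 change between Tbx1+/- and WT osteoclast nuclei in batch 1 against batch 2, 1 point per gene, for the resorption, receptor and factor, G2/M and osteoblast lists. The resorption and factor genes scatter around 0, 44 of 50 G2/M genes lie below 0 in batch 2, and all 13 osteoblast genes lie above 0 in batch 2.

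Transcripts of osteoblast genes were present in osteoclast nuclei. The 13 genes of the osteoblast list, among them the bone matrix genes Col1a1 and Ibsp and the osteocyte genes Dmp1, Phex and Mepe, summed to 9133, 9828, 5854 and 7968 CPM in osteoclasts, and every osteoclast nucleus held at least 1 of these UMIs. The tenth of nuclei richest in them held 31.3% to 39.0% of all. In the comparison of genotypes 3 of 13 (Phex and Sp7 among them) were higher and 0 lower at an unadjusted p under 0.05. Over all genes 151 of 13191 (1.14%) were higher at that p. The median of the list was 0.23, and 8 were higher in both batches, beside 3439 of 13191 over all genes. With the batch block 8 of 13 passed an unadjusted p under 0.05, all higher, beside 301 higher (2.28%) over all genes. The list's level in the osteoblast class itself was 51496 CPM in WT replicate 1 and 35756, 35776 and 36153 CPM in Tbx1+/- replicate 1, WT replicate 2 and Tbx1+/- replicate 2, and in CPs it was 16118, 15719, 12226 and 13574 CPM. The macrophage-marker barcodes held Ibsp at 823, 980, 1012 and 1473 CPM and Col1a1 at 2286, 2859, 1811 and 2185 CPM. Both genes were higher in the Tbx1+/- library of each batch. These barcodes were chosen to hold fewer UMIs of the osteoblast list than of the macrophage list, which limits both levels. Where these UMIs came from was not tested.

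The genotype effect in osteoclasts was then set against that in osteoblasts in 1 model with the interaction of genotype and class. The osteoclast and osteoblast sums of a library come from the same pool of mice, and each library was a term of the model, so that they were compared within libraries. The 8 sums of 4 libraries left 2 residual degrees of freedom, and 1 with the batch block. With so few, the spread used for a gene comes in large part from other genes. Of 15705 genes, 0 (0%) were called by edgeR, with 375 positive (2.39%) and 312 negative (1.99%) at an unadjusted p under 0.05. By DESeq2 there were 11 calls. With the batch block 92 were called (0.586%), 71 positive (0.452%) and 21 negative (0.134%). Of the 13 osteoblast genes all 13 were positive at an unadjusted p under 0.05 without the block, and 10 were called with it. Of 54 G2/M genes 15 were negative and 0 positive at that p, with a median of -0.35, and 2 were called negative with the block. Ibsp, a bone sialoprotein, differed by 0.77 (SE 0.10, edgeR adjusted p = 4.06e-11 with the block, 0.226 without). It stood at 10760 and 5076 CPM in WT and 4544 and 5282 CPM in Tbx1+/- osteoblasts, so WT replicate 1 was high and the others were alike. In osteoclast nuclei Ibsp was at 1095 and 739 CPM in WT and at 985 and 1018 CPM in Tbx1+/-. For Col1a1 the difference was 0.68 (SE 0.10, edgeR adjusted p = 6.94e-09 with the block, 0.360 without), and WT replicate 1 was again the high library in osteoblasts, at 13720 CPM against 7580 to 8106 CPM. Without WT replicate 1 the edgeR difference was 0.75 for Col1a1 (adjusted p = 0.0181) and 0.51 for Ibsp (adjusted p = 0.0899), and DESeq2 over all libraries called both.

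For Lifr, Mamdc2 and Rerg the log2 changes in osteoblasts were small, at 0.22, -0.14 and 0.04, against 0.96, 0.88 and 0.97 in osteoclasts. The differences were 0.74, 1.02 and 0.94 with the block, and all 3 were also called by DESeq2. In osteoclasts Lifr was at 0.08- to 0.15-fold of the class labelled hypertrophic. Rerg was at 0.05- to 0.11-fold of matured osteoblasts. Neither of those classes was in the model, and where the UMIs of these 3 genes came from was not tested. Ctsk differed in the other direction, by -0.38 (SE 0.09, edgeR adjusted p = 0.0135 with the block, 1 without), and DESeq2 did not call it. Without a filter on gene level edgeR called it (-0.39, adjusted p = 0.0338). With RLE factors, with at least 2000 genes per nucleus or without the 8% of nuclei with the most UMIs it did not. Leaving out Tbx1+/- replicate 2 gave a difference of -0.66. In osteoblasts Ctsk, Acp5 and Mmp9 summed to 1002 and 467 CPM in WT and to 888 and 729 CPM in Tbx1+/-. The origin of these marker UMIs was not tested.

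**Figure D5:**
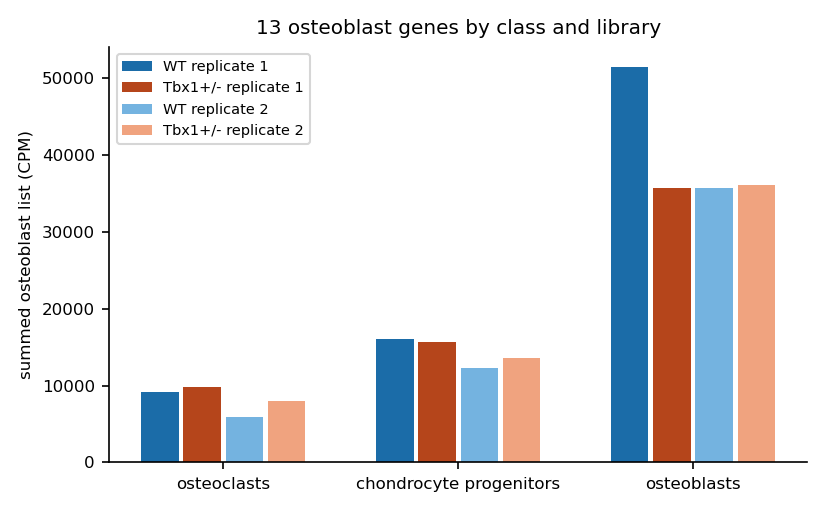
Summed level of the 13 osteoblast genes in CPM in osteoclasts, chondrocyte progenitors and osteoblasts, with 1 bar per PTB library from 0. The osteoblasts of WT replicate 1 stand at 51496 CPM and those of the other 3 libraries at 35756 to 36153 CPM, while in osteoclasts the Tbx1+/- library is above the WT library of its batch.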

How the data were processed

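The study made snRNA-seq libraries from the PTB and PF/F of P5.5 mice, and the 4 PTB libraries, of 66835028 to 88677309 UMIs each, were used here. The counts deposited by the authors hold the raw UMIs of each gene in each barcode, made with Cell Ranger 7.0.0 on mm10 with intronic reads included, before their filters on genes and mitochondrial reads and their correction for ambient RNA. The score values in the deposited annotation are coordinates of the authors' embedding. Cell types are the authors' annotation. No doublet removal is described in the sources used here, so the 8% of nuclei with the most UMIs were left out as an alternative.

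UMIs were summed per class and library. Genotypes were compared with edgeR 4.0.16 (filterByExpr, TMM, quasi-likelihood test, Benjamini-Hochberg adjustment) and with DESeq2 1.42.0 in R 4.3.3; SE is the log2 change over the square root of F. Class shares were tested with annotated nuclei as the offset. Other steps ran in Python 3.11.15 (scipy 1.17.1, matplotlib 3.10.9). Since each library is a pool of 5 mice, p-values rest on the spread between pools and not between mice. In edgeR and DESeq2 the spread of a gene is estimated in part from other genes. The study describes 2 separate batches of mice, and the replicate numbers in the sample titles were taken to mark them. Deviations of same-numbered libraries correlated at 0.326 over 13191 genes, so fits with a replicate block are given where they change a call. Named genes were the members of the lists, the 10 genes outside them with the highest lowest fold, Tbx1, and the called genes or the 5 with the smallest p per direction, and some of these are not reported here. Genes of the embedding groups and of the interaction were named after their values were seen, like the macrophage barcodes. The members and lists were chosen with earlier results of these data known. Alternatives were other normalization, filters, nuclei, denominators and folds, DESeq2, the block, and leaving out each library.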

Additional observations from a re-analysis of the deposited data

Results flagged for a closer look

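With the batch as a block, the genotype effect in osteoclasts differed from that in osteoblasts by 0.77 for Ibsp, 0.68 for Col1a1, 0.74 for Lifr, 1.02 for Mamdc2, 0.94 for Rerg and -0.38 for Ctsk on the log2 scale, as tested by edgeR's interaction term at an adjusted p under 0.05. In the same edgeR fit without the block none passed, and the lowest adjusted p of any gene was 0.0681. Other fits without the block did call them. With no filter on gene level edgeR called all 6 (adjusted p = 1.39e-10 for Ibsp to 0.0338 for Ctsk). DESeq2 called Ibsp, Col1a1, Lifr, Mamdc2 and Rerg (adjusted p = 0.00216 to 0.0119), edgeR with RLE factors called Rerg and Mamdc2 (adjusted p = 0.0298), and with at least 2000 genes per nucleus it called Lifr, Mamdc2 and Rerg (adjusted p = 0.0157 to 0.0297).

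Unannotated barcodes at the marker level of osteoclasts that also held at least 1 UMI of any of 7 other osteoclast genes numbered 878 in WT replicate 1, 741 in Tbx1+/- replicate 1, 206 in WT replicate 2 and 308 in Tbx1+/- replicate 2. They stand outside the annotated nuclei on which the comparisons rest. Their share of the unannotated barcodes at that level, 43.2% to 52.0%, stood beside 46.2% to 55.4% of hypertrophic-labelled nuclei at that level, which were deeper (medians of 3340 to 4022 against 1916 to 2331 UMIs). The 7 genes summed to 747 to 1519 CPM in the unannotated barcodes and to 188 to 291 CPM in those nuclei. In the few matured osteoblasts at that level (7 to 29 nuclei) they summed to 270 to 742 CPM.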

How the results depend on the processing

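The share of osteoclasts kept its direction and stayed past no threshold under each alternative, with log2 changes of 0.06 (TMM factors) to 0.23 (all barcodes as the total). Leaving out 1 library gave 0.01 to 0.33, the highest without WT replicate 2 (adjusted p = 0.113). The ratio to osteoblasts was negative in all, from -0.20 to -0.04 without 1 library and from -0.18 to -0.11 otherwise. Of genes called between genotypes, the replicate block gave 3 and leaving out 1 library gave 0 to 206 (without WT replicate 1, 206; without WT replicate 2, 43; without Tbx1+/- replicate 2, 1). Each other alternative, including RLE factors, no filter and DESeq2, gave 0. For the interaction with osteoblasts the replicate block gave 92, RLE factors 4, testing genes of any level 59, DESeq2 11, a minimum of 2000 genes per nucleus 4, and leaving out 1 library 6 to 57; without the 8% of nuclei with the most UMIs it was 0. Genes higher in osteoclasts numbered 655 at 2-fold and 130 at 8-fold instead of 294, and 211 to 331 otherwise. Of single genes, the log2 change of Acp5 ranged from -0.44 to 0.33 when 1 library was left out, that of Mmp9 from -0.41 to 0.50 and that of Oscar from -0.13 to 0.40. The sign was opposite to the value over all libraries for Acp5 and Mmp9 without WT replicate 1, and for Mmp9 (0.12) and Oscar without Tbx1+/- replicate 2. For Mmp9 it was also opposite with the block (0.0432) and with a minimum of 2000 genes per nucleus (0.0086). The causes were not tested. With 2 libraries a group, changes within the spread between replicates cannot be seen, and Trem2, Irf8 and other genes under 10 CPM rest on few UMIs.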
